A study of Mus musculus with 3 samples.

Results

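Neutrophils were picked out of the single-cell RNA library of a Treg-depleted tumor by a fixed set of transcripts, and 60 of the 4434 barcodes kept in that library belonged to them. Over the series, 14427 barcodes were kept. A barcode was kept with at least 1000 UMIs (unique molecular identifiers, each standing for 1 captured RNA molecule), at least 400 genes and at most 10% of its UMIs from mitochondrial genes. A kept barcode was then called a neutrophil if S100a8 and S100a9 made up at least 1% of its UMIs, if Csf3r, Retnlg and Cxcr2 together had at least 2 UMIs, if Csf1r had 0 UMIs, and if H2-Aa, H2-Ab1 and H2-Eb1 together had at most 5 UMIs. S100a8 and S100a9 encode the calprotectin subunits that fill neutrophil cytosol, Csf3r the G-CSF receptor, Retnlg a resistin-like protein and Cxcr2 the receptor for ELR chemokines. Csf1r, the macrophage growth factor receptor, and the MHC class II genes keep monocytes, macrophages and dendritic cells out. Because those transcripts chose the members, their own levels are a description and support nothing.

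The series held 3 droplet libraries from C57BL/6J mice with subcutaneous B16F10 melanoma, 1 library per group. The first came from a tumor labelled FoxP3 DTR and Treg-depleted (regulatory T cells removed through a diphtheria toxin receptor expressed from the Foxp3 locus), the second from a tumor labelled WT and control, and the third from blood of WT tumor-bearing mice, also labelled control. The Treg-depleted tumor therefore differed from the control tumor in genotype and in depletion together, and the effects of those cannot be told apart. Viable CD45+ cells were sorted for CD11b or CD11c and against CD90, NK1.1, B220, SiglecF and Ly6G. Ly6G is the surface protein by which mouse neutrophils are usually sorted, so every share given here is a share of what remained after a sort against it. Tumors were digested with collagenases at 37 °C, whereas blood was taken by cardiac puncture and its red cells were lysed, so tissue and handling cannot be told apart between tumor and blood. In all, the libraries held 23291061 UMIs (Treg-depleted tumor), 42493416 UMIs (control tumor) and 22944387 UMIs (control blood). The labels gave no number of animals, pooling, age or batch. With 1 library per group no difference has a replicate check and no p-value is given. Intervals are exact 95% intervals (Poisson for levels, conditional binomial for ratios, Clopper-Pearson for shares) and cover counting error only.

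Neutrophils are short-lived granulocytes made in the bone marrow. They load granule proteins in waves while they mature, and mature cells in blood have largely stopped transcribing the granule genes but keep their proteins. On entering inflamed tissue they are known to switch on chemokine, IL-1 family and survival genes, many of them through NF-kB and interferon signalling. In tumors, neutrophils have been described both as killers of tumor cells and as suppressors of T cells, the suppressors being marked by genes such as Arg2, Cd274 and Irg1.

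The 60 neutrophils of the Treg-depleted tumor were 1.35% of its kept barcodes (1.03 to 1.74%). The same gate passed 14 of 4443 kept barcodes of the control tumor, a share of 0.315% (0.172 to 0.528%), and 138 of 5550 kept barcodes of control blood, a share of 2.49% (2.09 to 2.93%). The share in the Treg-depleted tumor lay above that in the control tumor and below that in blood, and none of the 3 intervals overlapped. These shares depended on the UMI minimum. At 500 UMIs and 200 genes the gate passed 89 of 4977 barcodes in the Treg-depleted tumor, 37 of 4731 in the control tumor and 1032 of 6727 in blood, which is 1.79%, 0.782% and 15.3%. Most of those 1032 blood barcodes thus lay under the usual minimum, and the difference between the tumors narrowed. The neutrophils had few UMIs: the 60 members held 126313 UMIs in all, with a median of 1762 per barcode (1071 to 7848) and a median of 574 genes, against medians of 3867.5 UMIs and 1395 genes in the other 4374 kept barcodes of the library. The median was 1376.5 UMIs in the 14 control tumor barcodes and 1627 UMIs in the 138 blood barcodes. Their mitochondrial share was low too, at a median of 0.567%, against 2.70% in the other kept barcodes.

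**Figure D1:**
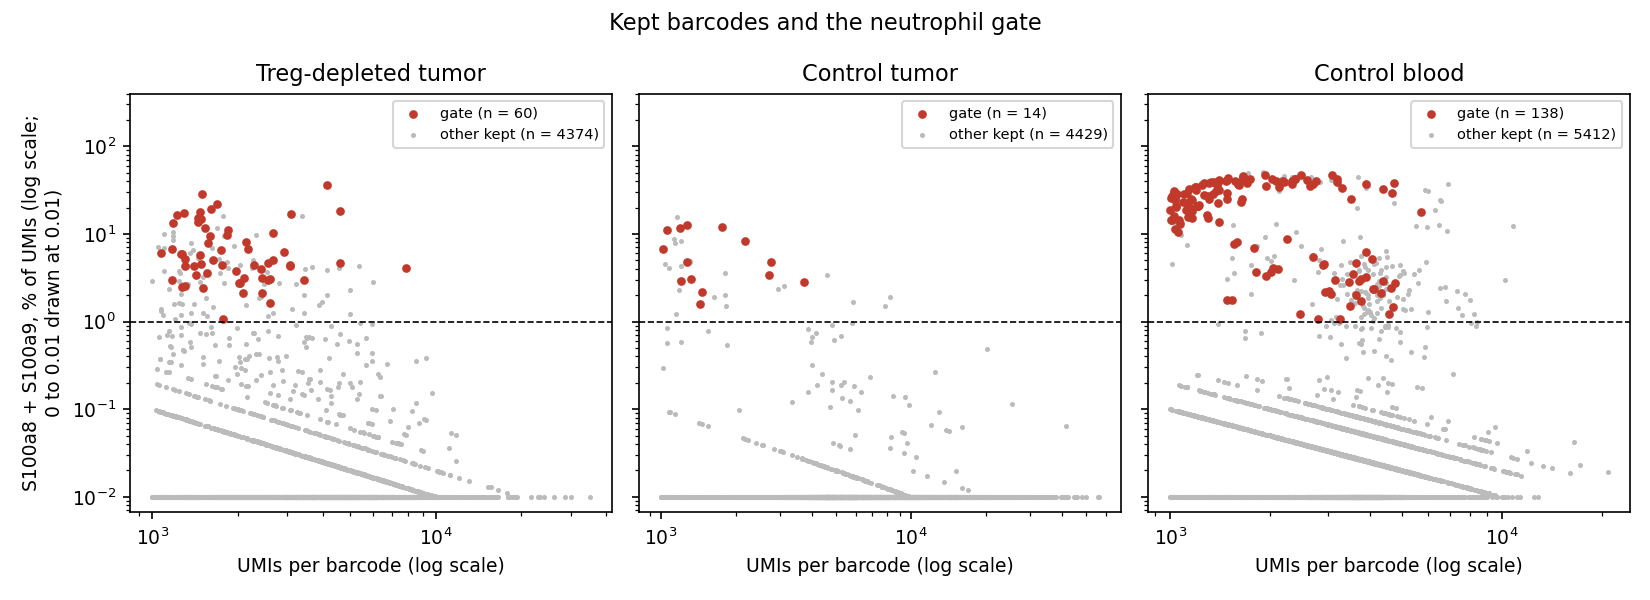
Each point is 1 kept barcode of the Treg-depleted tumor, control tumor or control blood library, with its total UMIs on the x axis (log scale) and the percent of UMIs from S100a8 and S100a9 on the y axis (log scale, with values under 0.01% drawn at 0.01%); red points pass the neutrophil gate and the dashed line marks 1%. The 60 red points of the Treg-depleted tumor sit at a median of 5.02%, the 14 of the control tumor at 4.77% and the 138 of blood at 24.3%.

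Members and barcodes just outside were counted at each threshold. At the UMI minimum, 21 of the 60 members had 1000 to 1500 UMIs, and 29 more barcodes passed at 500 UMIs and 200 genes. For the S100 threshold, 1 member lay between 1% and 1.5%, and 5 barcodes that met every other condition lay between 0.5% and 1%. For Csf3r, Retnlg and Cxcr2, 12 members had exactly 2 UMIs, and 19 barcodes just outside had exactly 1. In all, 57 barcodes failed on those 3 genes alone, almost as many as the members. Levels are given as CPM, the UMIs of a gene per 1000000 UMIs, summed over the barcodes of a set. Ccl4 was at 45601 CPM in the members and 49844 CPM in these 57 barcodes, Cxcl2 at 31881 and 44178 CPM, Cd274 at 2549 and 2258 CPM, and G0s2 at 4584 and 2980 CPM. Wfdc17 differed more, at 14709 and 5829 CPM. The leading transcripts described below were thus found on both sides of that threshold. Failing only the S100 condition were 15 barcodes, only the Csf1r condition 2 and only the MHC class II condition 3.

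Markers that the gate did not use were examined to see what else the members held. A list of 22 other neutrophil genes summed to 23046 CPM in the members (22216 to 23899), against 1787 CPM in the other kept barcodes, and it stood at 28643 CPM in the control tumor barcodes and 23267 CPM in the blood barcodes. Of the 22 genes, 21 were detected and BC100530 was at 0. Each of the 60 members had UMIs from the list, as did 3980 of the 4374 other kept barcodes. The eosinophil, basophil and mast cell, T cell, NK cell and B cell lists were at 0 UMIs in the members, an upper limit of 29.2 CPM each. In the other kept barcodes the eosinophil list was at 161 CPM. The remaining lists were under that limit there as well, at 3.01 (basophil and mast cell), 0.467 (T cell), 12.4 (NK cell) and 0.571 CPM (B cell). Those lists therefore could not set the members apart. The monocyte list was at 222 CPM (28 UMIs), against 2846 CPM in the other kept barcodes, with 2 of its 8 genes at 0. The macrophage list was at 396 CPM (50 UMIs), against 2409 CPM, with 1 of its 10 genes at 0, and 35 of those 50 UMIs were Cd68, which encodes a lysosomal protein that neutrophils also express. The dendritic cell list had 17 UMIs with 6 of 9 genes at 0, and the melanoma list had 2 UMIs, both in 1 barcode. None of the 60 members was marked as a doublet, against 157 of the 4434 kept barcodes of the library. At that share few would be expected among 60. The gate's limits on Csf1r and MHC class II also leave out mixed barcodes, so the count says little about purity. Of the 60 barcode sequences, 1 also occurred among the kept barcodes of blood and 0 among those of the control tumor, while the libraries shared 27 to 36 kept barcodes per pair. The markers fit neutrophils, and the monocyte, macrophage, dendritic cell and eosinophil lists were lower in the members than in the other kept barcodes.

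RNA free in the suspension was estimated from droplets of 1 to 50 UMIs. By the macrophage genes C1qa, C1qb, C1qc and Apoe, which neutrophils are not known to express and which gave 9 UMIs in the members, free RNA was estimated at 5.44% of the members' UMIs. By the 4 haemoglobin genes, with 1 UMI, it was 0.731%. Several abundant tumor transcripts stood near the larger estimate, 5.44%, of their level in the near-empty droplets. In the members, Ccl24 was at 5.95% of it, Ccl2 at 6.16%, Ccl7 at 5.72%, Arg1 at 4.91% and Tmsb10 at 5.26%. At the estimate of 5.44% these levels cannot be told from free RNA, and at 0.731% they would lie above it. They are not read as expression. Below, a free RNA level means at most 10.9% of the level in those droplets, 2 times the larger estimate. By contrast Ccl4 was at 1201% and Cxcl2 at 424% of their level in those droplets.

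The blood barcodes that passed the gate were a mixed set, which bears on every comparison with blood. Of the 138, 98 had at least 10% of their UMIs from S100a8 and S100a9, and 40 had less. Among the 98, 59 had at most 5 UMIs from the granule genes Camp, Ngp and Ltf, and 39 had more, with a median of 120. The 40 others had a median of 3199 UMIs and a median of 1337 genes, and the NK list gave 259 UMIs in 11 of them. Levels are therefore given for all 138 blood barcodes, and counts over gene lists also against the 59 S100-rich, granule-poor ones. That split was chosen after the data were seen. Monocyte and macrophage markers moved with the comparison too: the monocyte list was at 222 CPM in the members, 821 CPM in the control tumor barcodes and 2133 CPM in the 138 blood barcodes, and the macrophage list at 396, 1806 and 1480 CPM. In the 59 blood barcodes these lists were at 637 and 554 CPM. In the control tumor, 1 barcode held 14 of the 20 monocyte UMIs and 1 held 17 of the 44 macrophage UMIs. The part of such transcripts in the differences was not tested.

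The most abundant transcripts of the tumor neutrophils were, apart from mitochondrial and ribosomal ones, Fth1 (62598 CPM), S100a8 (46139 CPM), the chemokine Ccl4 (45601 CPM), Malat1 (36544 CPM), S100a9 (34636 CPM) and the chemokine Cxcl2 (31881 CPM). Next came Srgn, which encodes the granule proteoglycan serglycin, at 14836 CPM, the ferritin light chain gene Ftl1 at 14749 CPM, Wfdc17 at 14709 CPM and the chemokine Ccl3 at 13720 CPM. B2m, Tmsb4x, H3f3b, Isg15, Il1b, Il1rn, Eif1, Tyrobp, Fcer1g and Irg1 completed the 20 highest. CPM in 3' libraries are not biased by gene length, and on this scale Ccl4 and Cxcl2 were close to the calprotectin genes.

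The other 4374 kept barcodes of the Treg-depleted tumor are all those outside the gate. They include the 57 that failed only on Csf3r, Retnlg and Cxcr2, in which the list of 22 other neutrophil genes was at 19144 CPM. Against the 4374, 316 of 1212 genes were at least 2-fold higher in the neutrophils (26.1%) and 554 were at least 2-fold lower (45.7%), with a median log2 ratio of -0.69. Counted over the 10331 genes with at least 20 UMIs on either side, the same 316 genes were 3.06% and 2148 lower genes were 20.8%. The 1212 genes had at least 20 UMIs in the members, or would have had them at the level of the other barcodes. This filter was chosen after the data were seen, because genes at 0 in so few cells take the 3-UMI floor and cannot be read. The contrast is the one the gate was built on, so it describes the members and tests nothing. Of the 22 neutrophil genes outside the gate, 18 met the filter and all 18 were at least 2-fold higher, with a median log2 ratio of 4.03.

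The 12 highest ratios over the other barcodes are named here. G0s2, an inhibitor of adipose triglyceride lipase, stood at 4584 CPM against 53.4 CPM (log2 ratio 6.42, 6.27 to 6.57). Il1f9, the IL-36 gamma gene, stood at 1029 CPM against 16.8 CPM (5.94). Hdc, histidine decarboxylase, which makes histamine, stood at 1251 CPM against 31.9 CPM (5.29). Wfdc21, Asprv1 and Pglyrp1, the last encoding a peptidoglycan-binding granule protein, had log2 ratios of 6.64, 5.98 and 5.40. Stefin A family genes on chromosome 16 were among them: Gm5416 (7.12), Stfa2l1 (6.67) and Gm5483 (6.52). Stefins are cytosolic inhibitors of cysteine proteases. The family has near-identical copies, so how its UMIs divide among the copies is uncertain. Slc40a1, the iron exporter ferroportin, was at 238 CPM against 4.88 CPM (5.61). Gm20406 and Mirt1 completed the 12 highest. Ly6g itself gave 9 UMIs in the members, 71.3 CPM (32.6 to 135), against 0.467 CPM in the other barcodes.

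Of the 12 lowest ratios, all but that of Tmsb10 belonged to genes with 1 UMI in the members. Ifi30, a lysosomal thiol reductase for antigen processing, gave 1 UMI in the members (7.92 CPM, 0.200 to 44.1) against 472 CPM in the other barcodes. Ms4a6d, Fn1 and Ccl12 likewise gave 1 UMI each, against 422, 365 and 424 CPM. Fcgr1, Mgl2, Dab2, Tmem256, Fkbp1a, Tbca and Psmb5 gave 1 UMI each as well. Tmsb10, which encodes an actin-sequestering thymosin, was at 158 CPM against 5878 CPM (log2 ratio -5.21). Of the 554 lower genes, 160 (28.9%) stood in the members at no more than 10.9% of their level in near-empty droplets, which is 2 times the free RNA estimate. Of the 316 higher genes, 0 did.

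Chemokine transcripts were among the most abundant of the tumor neutrophils. Ccl4, whose product attracts lymphocytes and monocytes, had 5760 UMIs in the members or 45601 CPM (44431 to 46794). It was at 1844 CPM in the other kept barcodes, at 8043 CPM in the control tumor barcodes (196 UMIs, 6956 to 9251) and at 30.6 CPM in the blood barcodes (9 UMIs, 14 to 58.1). Its level was 24.7-fold that of the other barcodes and 1490-fold that of blood (log2 ratio 10.54, 9.62 to 11.67). Ccl3, its neighbour on chromosome 11 and a ligand of CCR1, was at 13720 CPM in the members, 632 CPM in the other barcodes, 3529 CPM in the control tumor (86 UMIs, 2823 to 4358) and 10.2 CPM in blood (3 UMIs), a log2 ratio over blood of 10.39 (8.84 to 12.67). Both genes followed the same order, highest in the Treg-depleted tumor and almost undetected in blood.

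Cxcl2 and Cxcl3 encode ligands of CXCR2, the neutrophils' own chemoattractant receptor. Cxcl2 was at 31881 CPM in the members (4027 UMIs, 30904 to 32881), 4430 CPM in the other barcodes, 11941 CPM in the control tumor (291 UMIs, 10609 to 13395) and 0 UMIs in the 138 blood barcodes. With blood set to the floor of 3 UMIs over the group, it was 3124-fold higher than in blood. Cxcl3 was at 2826 CPM in the members, 431 CPM in the other barcodes, 1067 CPM in the control tumor (26 UMIs) and 0 UMIs in blood. At the same floor that is 277-fold higher than in blood. Cxcr2 had 37 UMIs in the members (293 CPM) and 107 in blood (364 CPM), as part of the gate. Cxcl2 and Cxcl3 thus appeared in tumor barcodes of both conditions and in no gated blood barcode.

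The 250 bases before the transcription start of Cxcl2, Cxcl3 and Ccl3 are shown because NF-kB sites are well known in promoters of inflammatory chemokines. The sequences are from RefSeq (GRCm38.p6), written 5′ to 3′ on the gene's strand: Cxcl2 at chr5:90903649-90903898 on the plus strand, Cxcl3 at chr5:90785851-90786100 on the plus strand, and Ccl3 at chr11:83649379-83649628 on the minus strand. Capitals mark matches, on either strand, to a kappa-B motif that reads GGG, any pair of bases, then TTTCC.
Cxcl2: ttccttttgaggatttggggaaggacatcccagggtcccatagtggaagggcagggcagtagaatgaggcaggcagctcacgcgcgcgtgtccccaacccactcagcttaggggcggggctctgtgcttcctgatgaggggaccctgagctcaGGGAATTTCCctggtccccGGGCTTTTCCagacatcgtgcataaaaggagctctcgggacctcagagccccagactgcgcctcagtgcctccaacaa
Cxcl3: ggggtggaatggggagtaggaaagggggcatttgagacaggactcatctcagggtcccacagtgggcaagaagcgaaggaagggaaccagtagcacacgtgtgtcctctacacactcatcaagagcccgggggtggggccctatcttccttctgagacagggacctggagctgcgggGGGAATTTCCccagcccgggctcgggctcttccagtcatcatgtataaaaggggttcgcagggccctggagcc
Ccl3: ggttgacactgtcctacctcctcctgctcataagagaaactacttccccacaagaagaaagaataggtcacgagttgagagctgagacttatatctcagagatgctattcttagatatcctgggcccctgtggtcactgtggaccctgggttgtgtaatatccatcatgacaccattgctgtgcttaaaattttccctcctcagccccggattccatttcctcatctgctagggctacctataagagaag
Cxcl2 held 2 matches, GGGAATTTCC starting 97 bases and GGGCTTTTCC starting 78 bases before the start. Cxcl3 held 1 match, the same GGGAATTTCC, starting 73 bases before the start, and Ccl3 held 0. Of 32851 RefSeq promoter windows of which the same 250 bases were searched, 464 (1.41%) held the motif. A match describes the letters and not binding, and no promoter of Ccl4 was printed.

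Other chemokines behaved differently. Cxcl10, a CXCR3 ligand induced by interferon, was at 752 CPM in the members, 367 CPM in the other barcodes, 0 UMIs in the control tumor and 13.6 CPM in blood. Ccl6 stood near the same level everywhere, at 2692 CPM in the members, 2778 CPM in the other barcodes, 3119 CPM in the control tumor and 2425 CPM in blood, though at 5966 CPM in the 59 S100-rich, granule-poor blood barcodes. Monocyte and type 2 chemokines were low: Ccl2 at 238 CPM, Ccl7 at 333 CPM and Ccl24 at 301 CPM, against 3078, 3108 and 4880 CPM in the other barcodes. As given above, those levels lie near the larger free RNA estimate. Ccl22, Cxcl5 and Ppbp were at 0 UMIs. Of 16 chemokines that met the filter against the other barcodes, 5 were higher and 10 lower, where 26.1% of all genes were higher and 45.7% lower. Of those 10 chemokines, 8 were at free RNA levels.

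**Figure D2:**
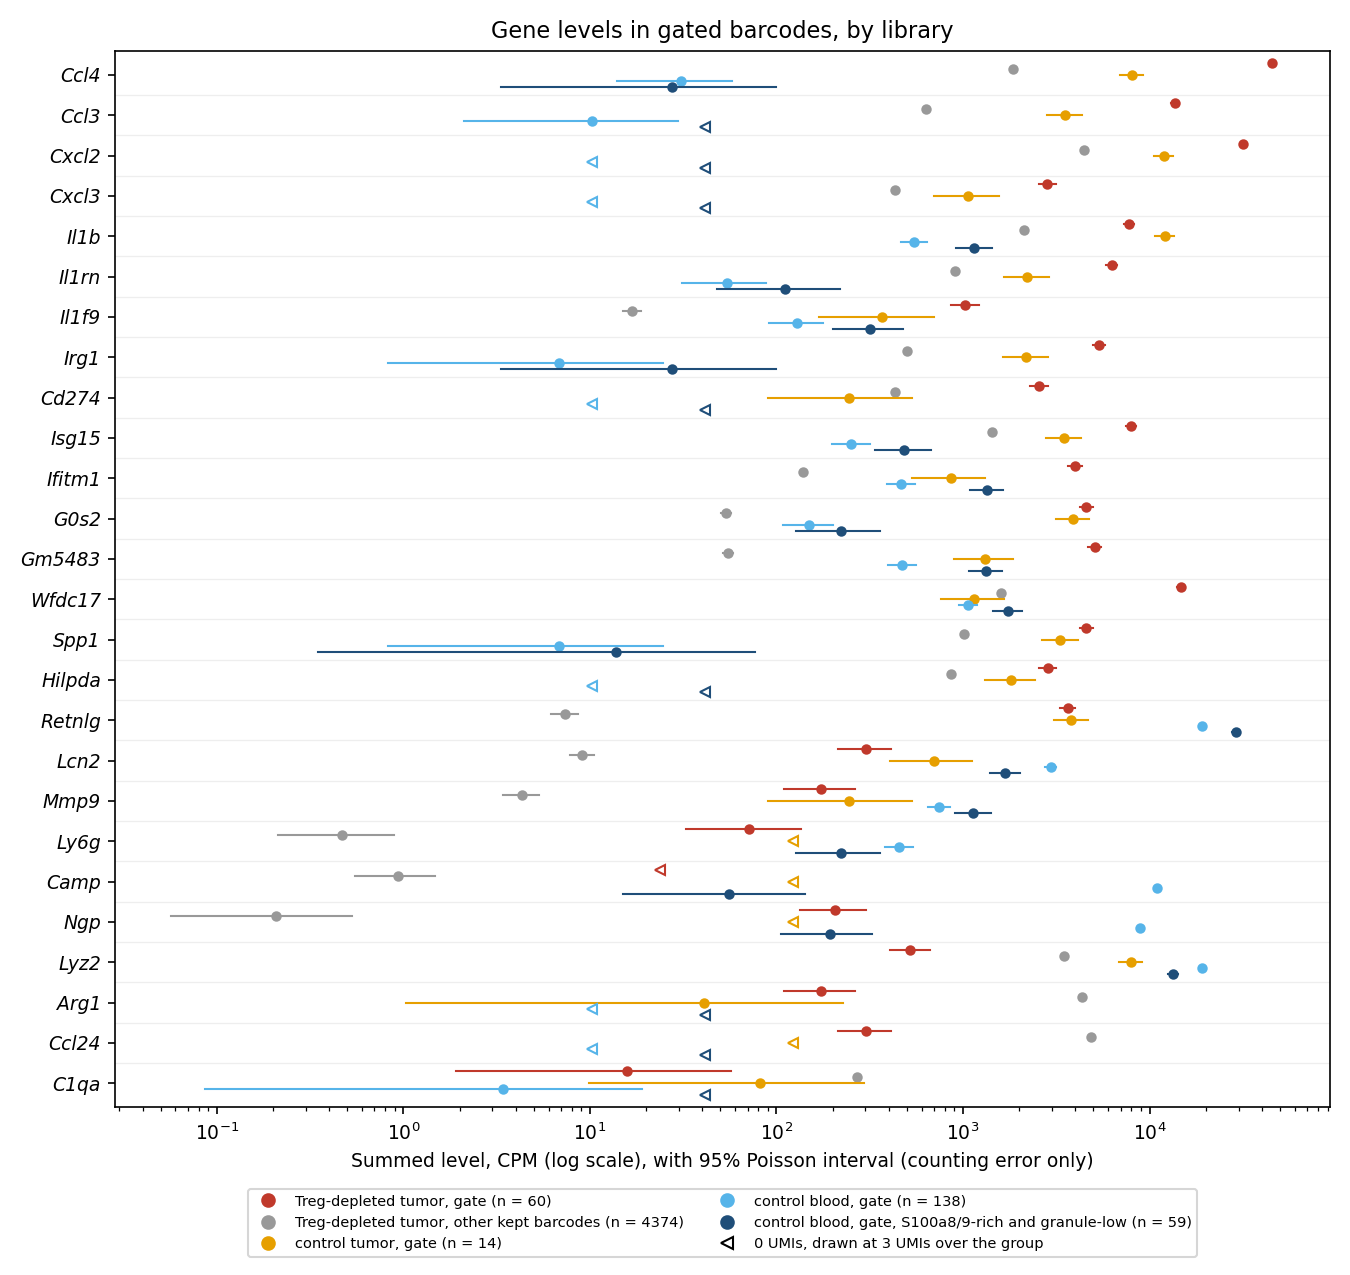
Levels of 26 genes in CPM (log scale) in the neutrophil gate of the Treg-depleted tumor, the other kept barcodes of that tumor, the neutrophil gate of the control tumor, that of control blood, and its 59 S100-rich, granule-poor barcodes; bars are exact 95% Poisson intervals and open triangles mark 0 UMIs, drawn at 3 UMIs over the set. Ccl4, Ccl3, Cxcl2, Irg1 and Cd274 stand in the Treg-depleted tumor gate at 2549 CPM or more and in the blood gate at 30.6 CPM or less, while Camp, Ngp and Lyz2 are higher in the blood gate.

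Against the 138 blood barcodes, 418 of 1884 genes with at least 20 UMIs on either side were at least 2-fold higher in the tumor neutrophils (22.2%) and 957 were at least 2-fold lower (50.8%), with a median log2 ratio of -1.04. Against the 59 S100-rich, granule-poor blood barcodes, 413 of 893 genes were higher (46.2%) and 221 lower (24.7%), with a median of 0.78. List counts over blood given below are to be read against those shares. Counts over the other barcodes are to be read against 26.1% of all genes higher and 45.7% lower. Of 11 chemokines measured, 8 were higher than in the 138 blood barcodes and 2 lower, and of 9 measured against the 59, 8 were higher and 1 lower. Of the 8 higher than in the 138 blood barcodes, Ccl2, Ccl7 and Ccl24 were at free RNA levels in the members. The 12 lowest ratios over the 138 were those of Camp, Apoe, Ccl5, Ltf, Ngp, Lyz2, Tsc22d3, Tnfaip8l2, Gzma, Ccnd3, Dok3 and Aldh2. Apoe, of the macrophage list, was at 1238 CPM in blood, Ccl5 at 2129 CPM and Gzma, of the NK list, at 769 CPM. In the members these 3 had 1, 2 and 0 UMIs.

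Of 16 receptors for chemoattractants and cytokines measured, 10 were higher than in the 138 blood barcodes and 3 lower, with a median log2 ratio of 1.5. Against the 59 blood barcodes 7 of 13 were higher and 0 lower (median 1.04), a share close to the 46.2% of all genes. Ccrl2, an atypical receptor that binds chemerin, was at 2343 CPM in the members, 1436 CPM in the control tumor (35 UMIs) and 3.40 CPM in blood (1 UMI), a log2 ratio over blood of 9.43 (6.94 to 14.74). Ccr1, a receptor for Ccl3 and Ccl6, was at 2296 CPM in the members, 1190 CPM in the control tumor and 207 CPM in blood. Ptafr, the receptor for platelet-activating factor, was at 1180 CPM in the members, 903 CPM in the control tumor and 78.2 CPM in blood. The formyl peptide receptor genes differed less: Fpr1 was at 317 CPM in the members and 102 CPM in blood, and Fpr2 at 546 and 265 CPM.

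Among innate lectin and immunoglobulin-like receptors, Trem1, which amplifies inflammatory signalling, was at 736 CPM in the members, 1108 CPM in the control tumor and 17.0 CPM in blood. The C-type lectin genes Clec4d and Clec4e were at 3159 and 2256 CPM in the members, 3078 and 3488 CPM in the control tumor and 197 and 119 CPM in blood. Icam1, an integrin ligand, was at 372 CPM in the members, 246 CPM in the control tumor and 23.8 CPM in blood. In the same list Selplg, the P-selectin ligand used for rolling on vessel walls, was lower than in blood, at 119 CPM in the members and 486 CPM in blood (log2 ratio -2.03, -2.91 to -1.26). Of 22 adhesion and lectin genes measured, 9 were higher than in blood and 6 lower, and against the 59 it was 9 and 4 of 17, again close to the share of all genes.

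IL-1 family genes were high in members of both agonist and antagonist kinds. Il1b was at 7774 CPM in the members (982 UMIs, 7296 to 8276), 2124 CPM in the other barcodes, 12106 CPM in the control tumor (295 UMIs, 10763 to 13569) and 548 CPM in blood. Il1b was thus one of the genes that stood higher in the control tumor gate than in the Treg-depleted one, and the intervals did not overlap. The decoy receptor Il1r2 followed the same order, at 1346 CPM in the members, 3324 CPM in the control tumor and 95.2 CPM in blood. The receptor antagonist Il1rn ran the other way between tumors, at 6262 CPM in the members (5833 to 6714), 907 CPM in the other barcodes, 2216 CPM in the control tumor (54 UMIs, 1665 to 2891) and 54.4 CPM in blood, a log2 ratio over blood of 6.85 (6.14 to 7.66). After thinning each barcode to 1000 UMIs, the median was 5 UMIs of Il1b and 6 of Il1rn in the 60 members, and 8 and 3 in the 14 control tumor barcodes, with overlapping ranges.

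Il1a was at 784 CPM in the members, 410 CPM in the control tumor and 0 UMIs in blood, 76.8-fold higher than in blood at the 3-UMI floor. Nlrp3, the sensor of the inflammasome that processes IL-1 beta, was at 990 CPM in the members, 574 CPM in the control tumor and 44.2 CPM in blood. Tnf was at 641 CPM in the members, 393 CPM in the other barcodes and 13.6 CPM in blood. Osm, an IL-6 family cytokine, was at 633 CPM in the members and 20.4 CPM in blood, and Csf1, the ligand of the receptor excluded by the gate, was at 380 CPM in the members, 32.0 CPM in the other barcodes and 3.40 CPM in blood (1 UMI). Of 14 inflammatory cytokine and IL-1 family genes measured, 11 were higher than in blood and 1 lower (median log2 ratio 4.26), and of 11 measured against the 59 blood barcodes all 11 were higher (median 3.95). Pycard, the inflammasome adaptor, was the lower one, at 31.7 CPM (4 UMIs).

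Genes named in work on suppressive tumor neutrophils were examined next. Cd274 encodes PD-L1, the ligand of the T cell checkpoint receptor PD-1. It was at 2549 CPM in the members (322 UMIs, 2278 to 2843), 432 CPM in the other barcodes, 246 CPM in the control tumor (6 UMIs, 90.4 to 536) and 0 UMIs in blood. At the 3-UMI floor that is 250-fold higher than in blood. Irg1, the itaconate synthase gene, was at 5360 CPM in the members (677 UMIs), 499 CPM in the other barcodes, 2175 CPM in the control tumor (53 UMIs, 1629 to 2845) and 6.80 CPM in blood (2 UMIs), a log2 ratio over blood of 9.62 (7.76 to 12.67). For both, the level in the members lay above that in the other barcodes, the control tumor gate and blood. In the 57 barcodes that failed the gate on Csf3r, Retnlg and Cxcr2 alone, Cd274 was close to the members' level, as given above. Thinned to 1000 UMIs, Cd274 was found in 50 of the 60 members with a maximum of 11, and in 3 of 14 control tumor barcodes with a maximum of 1.

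Wfdc17, a small whey acidic protein family gene, was at 14709 CPM in the members (14048 to 15394), 1602 CPM in the other barcodes, 1149 CPM in the control tumor (28 UMIs, 764 to 1661) and 1068 CPM in blood. Its log2 ratio over the control tumor barcodes was 3.68 (3.14 to 4.27). Arginase genes divided: Arg2, the mitochondrial form, was at 562 CPM in the members, 698 CPM in the control tumor and 95.2 CPM in blood, whereas Arg1, at 174 CPM in the members and 4353 CPM in the other barcodes, lay at the free RNA level. Nos2 gave 2 UMIs. Ptgs2, the inducible cyclooxygenase, was at 744 CPM in the members, 123 CPM in the control tumor (3 UMIs) and 6.80 CPM in blood (2 UMIs). Of 15 genes of the suppressor list measured, 13 were higher than in blood and 0 lower (median log2 ratio 4.09), Arg1 among the 13. Against the 59, 13 of 14 were higher and 1 lower (median 2.96).

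Cd14, the lipopolysaccharide co-receptor, which has been described on activated neutrophils of mouse tumors, was at 2700 CPM in the members, 1168 CPM in the other barcodes, 8084 CPM in the control tumor (197 UMIs, 6994 to 9295) and 3.40 CPM in blood (1 UMI). Like Il1b it was higher in the control tumor gate than in the Treg-depleted one, and each of the 14 control tumor barcodes held it. Spp1, which encodes osteopontin, was at 4584 CPM in the members, 1011 CPM in the other barcodes, 3324 CPM in the control tumor and 6.80 CPM in blood (2 UMIs). Hilpda, a hypoxia-inducible lipid droplet gene, was at 2850 CPM in the members, 1806 CPM in the control tumor and 0 UMIs in blood, 279-fold higher than in blood at the 3-UMI floor. Basp1 was at 1298 CPM in the members, 82.1 CPM in the control tumor (2 UMIs) and 3.40 CPM in blood (1 UMI).

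Interferon-stimulated genes stood above both the other tumor cells and blood. Of 30 that met the filter against the other barcodes, 22 were higher and 5 lower (median log2 ratio 1.78). Of 29 measured against blood, 24 were higher and 2 lower (median 2.72), and of 26 measured against the 59 blood barcodes, 21 were higher and 1 lower (median 2.51). Isg15, a ubiquitin-like antiviral protein gene, was at 7988 CPM in the members (7503 to 8497), 1430 CPM in the other barcodes, 3488 CPM in the control tumor (85 UMIs, 2786 to 4313) and 252 CPM in blood, a log2 ratio over blood of 4.99 (4.65 to 5.35). Ifitm1, which restricts viral entry, was at 3982 CPM in the members, 139 CPM in the other barcodes, 862 CPM in the control tumor and 466 CPM in blood. Rsad2, which encodes viperin, was at 3040 CPM in the members, 451 CPM in the other barcodes, 533 CPM in the control tumor and 74.8 CPM in blood. For these 3 genes the members' interval lay above those of the other barcodes, the control tumor gate and blood.

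Other genes of the interferon list are given as values. Gbp2, a guanylate-binding GTPase, was at 2146 CPM in the members, 701 CPM in the other barcodes, 410 CPM in the control tumor and 47.6 CPM in blood. Irgm1, an immunity-related GTPase, was at 1393 CPM in the members, 320 CPM in the other barcodes, 451 CPM in the control tumor and 34.0 CPM in blood. Slfn4 and Isg20 were at 1005 and 768 CPM in the members, 369 and 739 CPM in the control tumor and 129 and 51.0 CPM in blood. The 2 genes lower than in blood were Ly6e and Bst2, at 301 and 119 CPM in the members and 826 and 241 CPM in blood. Members of the Ifit family share sequence, so their division is uncertain. MHC class I genes were closer to the rest of the tumor: B2m was at 11464 CPM in the members, 9940 CPM in the other barcodes, 5745 CPM in the control tumor and 3843 CPM in blood, and 8 of 14 genes of this list were higher than in blood and 0 lower, against 10 and 0 of 13 over the 59.

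All 10 measured NF-kB factors and feedback genes were higher than in blood (median log2 ratio 4.02), and all 10 were higher than in the 59 blood barcodes (median 3.46). Nfkbia, which encodes the inhibitor IkB alpha and is itself an NF-kB target, was at 4069 CPM in the members, 1662 CPM in the other barcodes, 3488 CPM in the control tumor (85 UMIs, 2786 to 4313) and 150 CPM in blood. Tnfaip3, which encodes the feedback enzyme A20, was at 515 CPM in the members, 410 CPM in the control tumor and 0 UMIs in blood. For Nfkbia and Tnfaip3 the intervals of the 2 tumor gates overlapped, unlike those for Cd274 or Isg15.

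Immediate early and transcription factor genes were examined next. Egr1 was at 1552 CPM in the members (196 UMIs, 1342 to 1785), 105 CPM in the other barcodes, 82.1 CPM in the control tumor (2 UMIs, 9.94 to 296) and 6.80 CPM in blood (2 UMIs). Ets2 was at 1275 CPM in the members, 369 CPM in the control tumor and 6.80 CPM in blood. Maff, a small Maf factor, was at 594 CPM in the members, 41.0 CPM in the control tumor (1 UMI) and 0 UMIs in blood. Cebpb, the factor of emergency granulopoiesis, was at 3950 CPM in the members, 3734 CPM in the control tumor and 306 CPM in blood, whereas Cebpe, the factor of granule gene transcription, gave 1 UMI in the members and 136 CPM in blood (40 UMIs). Of 17 granulocyte transcription factors measured, 13 were higher than in blood and 4 lower, and against the 59 it was 12 and 2 of 15. Of 14 immediate early and heat shock genes 10 were higher than in blood and 2 lower, but against the 59 only 8 of 14 were higher and 1 lower, which is nearer the share of all genes. Tissue digestion is known to induce immediate early genes, and blood was not digested. The part of handling in these differences was not tested.

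Survival genes were higher as a list, with 14 of 16 measured above blood and 1 below (median log2 ratio 3.15), and 13 of 15 above the 59 and 0 below (median 3.22). Mcl1, the anti-apoptotic protein on which neutrophils depend most, was at 1528 CPM in the members, 903 CPM in the control tumor and 296 CPM in blood. Bcl2a1b was at 1758 CPM in the members, 2544 CPM in the control tumor and 61.2 CPM in blood, with the reserve that the Bcl2a1 copies share sequence. The stress gene Gadd45b was at 1758 CPM in the members, 1272 CPM in the control tumor and 51.0 CPM in blood, and the kinase gene Pim1 at 1338, 1313 and 98.6 CPM.

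Granule genes ran against this pattern. Of 13 specific and gelatinase granule genes measured against blood, 0 were higher and 12 lower (median log2 ratio -3.40). All 6 azurophil granule genes were at 0 UMIs in the members, an upper limit of 29.2 CPM for the list. In blood that list had only 8 UMIs (27.2 CPM), so no difference can be read from it. Camp, the cathelicidin gene, was at 0 UMIs in the members (an upper limit of 29.2 CPM) and at 11027 CPM in blood, 464-fold lower at the 3-UMI floor. Ngp was at 206 CPM in the members (26 UMIs) and 8925 CPM in blood, and Ltf, which encodes lactoferrin, was at 31.7 CPM (4 UMIs) and 2034 CPM. These 3 genes are carried by the 39 granule-rich blood barcodes: in the 59 S100-rich, granule-poor ones, chosen on these very genes, Camp was at 55.4 CPM, Ngp at 194 CPM and Ltf at 0 UMIs, and Ngp no longer differed (log2 ratio 0.09).

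The granule genes Lyz2, Lcn2, Mmp9 and Mmp8 were lower than in both blood sets. Lyz2, the lysozyme gene, was at 523 CPM in the members (404 to 665), 3471 CPM in the other barcodes, 7961 CPM in the control tumor (194 UMIs, 6880 to 9163), 19159 CPM in blood and 13399 CPM in the 59. Lyz2 was thus lower in the members than in each of these sets. Free RNA bears on the control tumor value, since Lyz2 was at 12861 CPM in the near-empty droplets of that library. Thinned to 1000 UMIs, 22 of the 60 members held Lyz2 with a maximum of 5, against 12 of the 14 control tumor barcodes with a median of 2 and a maximum of 21. Lcn2, which encodes a siderophore-binding protein, was at 301 CPM in the members, 698 CPM in the control tumor, 2962 CPM in blood and 1689 CPM in the 59. The gelatinase gene Mmp9 was at 174, 246, 741 and 1135 CPM in the same order, and Mmp8, the neutrophil collagenase, at 95, 41.0, 1071 and 955 CPM. Slpi, a protease inhibitor stored beside them, did not follow, at 4069 CPM in the members, 6360 CPM in the control tumor and 3622 CPM in blood. Against the 59, 6 of 8 granule genes were lower and 0 higher (median -2.93).

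Of 9 NADPH oxidase genes, 0 were higher than in blood and 5 lower (median log2 ratio -1.69), a share lower that is close to the 50.8% of all genes. Against the 59, 0 of 8 were higher and 7 lower, where 24.7% of all genes were lower. Cyba, which encodes the p22phox subunit, was at 792 CPM in the members, 2955 CPM in the control tumor (72 UMIs) and 2548 CPM in blood. Cybb, the catalytic subunit, was at 71.3, 369 and 653 CPM, and Rac2, its GTPase, at 317, 246 and 1245 CPM. Alox5ap, the activator of 5-lipoxygenase, was at 443 CPM in the members, 1190 CPM in the control tumor and 1684 CPM in blood. Only 5 genes of its lipid mediator list could be measured, 1 higher than in blood and 3 lower, and of the 3, Alox5 and Hpgd were at free RNA levels. In the S100 family, S100a6 and S100a11 were at 3111 and 2898 CPM in the members and 5500 and 5717 CPM in blood.

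Iron storage, redox and hypoxia genes were mixed. Fth1, the ferritin heavy chain, was at 62598 CPM in the members (61226 to 63994), 19065 CPM in the other barcodes, 52156 CPM in the control tumor (49328 to 55105) and 3537 CPM in blood, 17.7-fold the blood level. Ftl1 differed less, at 14749 CPM in the members, 15922 CPM in the control tumor and 6993 CPM in blood. Slc7a11, the cystine importer, was at 1734 CPM in the members, 1970 CPM in the control tumor and 68.0 CPM in blood. Gpx1, a glutathione peroxidase, was lower, at 95 CPM in the members (12 UMIs), 328 CPM in the control tumor and 1333 CPM in blood. Of 13 antioxidant and iron genes, 7 were higher than in blood and 2 lower, and the counts over the 59 were the same.

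Of 19 hypoxia and glycolysis genes, 12 were higher than in blood and 2 lower (median log2 ratio 1.66), and 12 of 18 were higher than in the 59 and 1 lower. Against the other tumor barcodes 0 of 19 were higher and 3 lower (median -0.56), where 26.1% of all genes were higher and 45.7% lower (median -0.69). Most genes of this list thus stayed within 2-fold of the other barcodes, at a median close to that of all genes. The list summed to 8645 CPM in the members and 11596.5 CPM in the other barcodes. Mif was at 1021 CPM in the members, 1508 CPM in the other barcodes, 410 CPM in the control tumor and 68.0 CPM in blood. Ero1l, a hypoxia-inducible oxidase of the endoplasmic reticulum, was at 475 CPM in the members, 341 CPM in the other barcodes and 10.2 CPM in blood (3 UMIs). Glycolytic enzymes differed less from blood: Gapdh was at 926 CPM in the members and 588 CPM in blood, and Pkm at 1195 and 741 CPM.

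**Figure D3:**
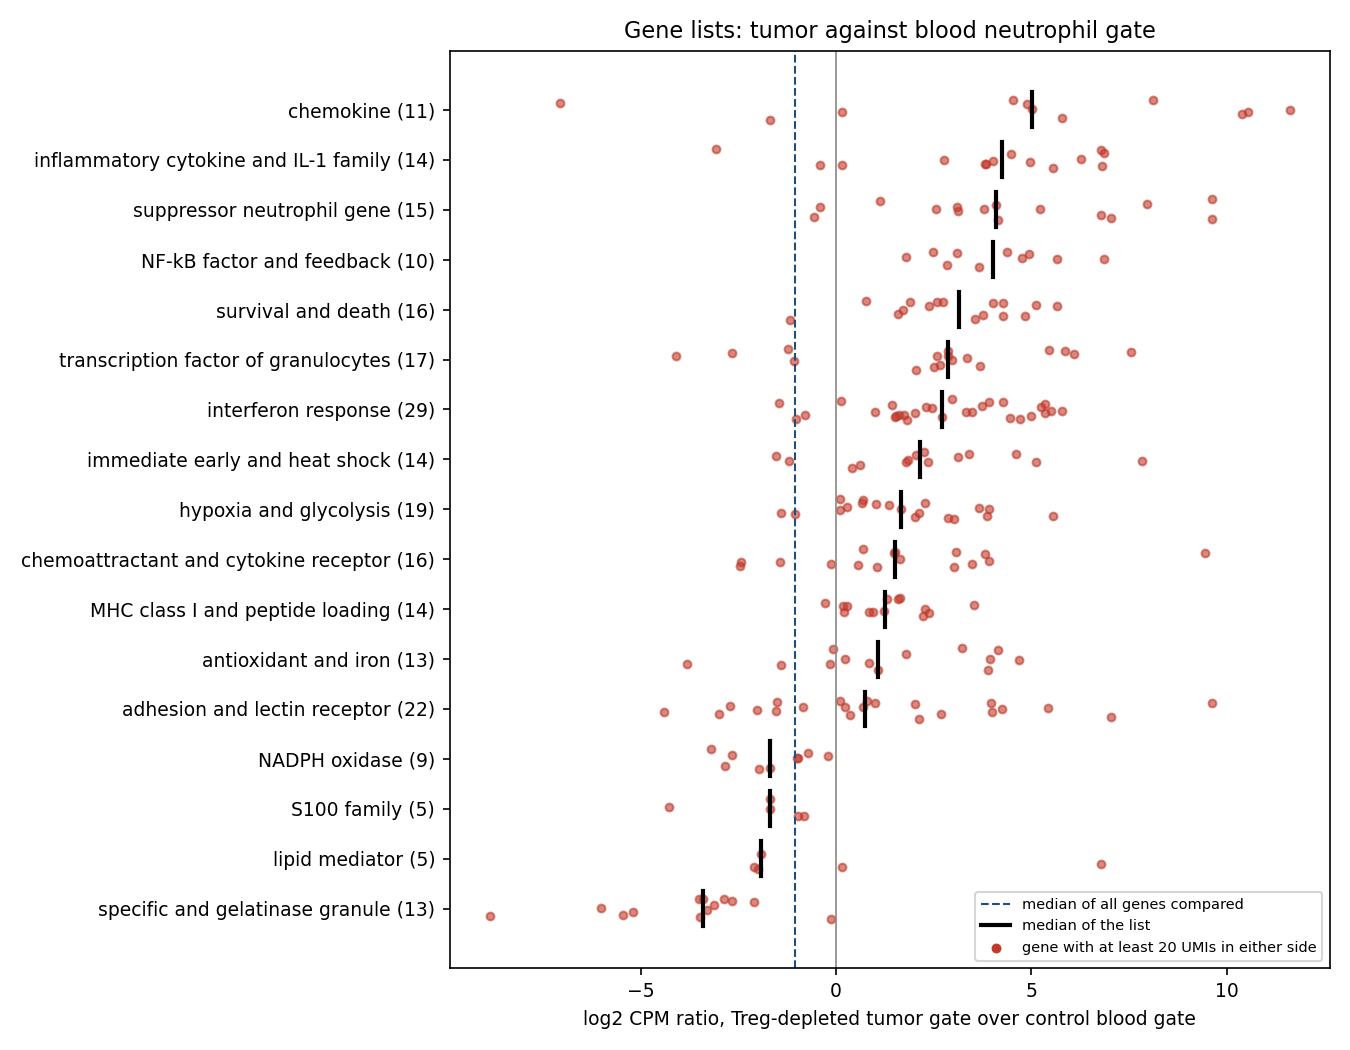
Log2 ratio of the neutrophil gate of the Treg-depleted tumor over that of control blood for each gene of each list (points), with the list median (line) and the median of all 1884 genes compared, -1.04 (dashed). Chemokine, IL-1 family, suppressor and NF-kB lists have medians of 4.02 or more, while NADPH oxidase and granule lists have medians of -1.69 and -3.40.

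Among themselves the 60 neutrophils varied in how many UMIs of the leading chemokine and interferon genes they carried, although most had some. To compare barcodes of unequal depth, each was thinned to 1000 UMIs. Cxcl2 was found in all 60 members, with 1 to 86 UMIs and a median of 23.5, against 63.9% of the other barcodes. Ccl4 was found in 57 members, with a median of 38 and a maximum of 146, against 34.4% of the other barcodes. In the control tumor Cxcl2 was found in 13 of 14 barcodes with a median of 7, and Ccl4 in 7 of 14 with a median of 0.5 and a maximum of 59. The median member thus held far more Ccl4 than the median control tumor barcode, although the ranges overlapped, and in blood no barcode held more than 1 thinned UMI of Ccl4.

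Spread was measured as the variance over the mean of thinned UMIs, which is near 1 for counting alone. S100a8 had the highest ratio (45.0, 2 to 252 UMIs), then Ccl4 (26.6), S100a9 (20.9), Fth1 (16.6, 2 to 133), Spp1 (15.1) and Cxcl2 (14.1). Spp1 was present in 28 of the 60 members and reached 42 UMIs, so its summed level came from fewer than all. Gm5483 was present in 37 members, with a median of 2.5 and a maximum of 30, against 2.45% of the other barcodes. Wfdc17 was present in 56 members with a median of 12 and a maximum of 57, against 7 of 14 control tumor barcodes with a maximum of 5. Isg15 was present in 57 members with a median of 6.5 and a maximum of 34, and Il1b in 57 with a median of 5 and a maximum of 54. Il1b was present in all 14 control tumor barcodes with a median of 8. Irg1 was present in 59 members and G0s2 in 49.

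Across the 60 members, rank correlations of thinned UMIs were computed as a description, without tests. The members share 1 library, and their thinned counts sum to the same total. S100a8 and S100a9 went together (Spearman's rho 0.77), as did Cxcl2 with Ccl3 (0.62), Ccl4 with Ccl3 (0.61) and Isg15 with Rsad2 (0.42). S100a9 ran against Il1rn (-0.49), Fth1 (-0.32) and Cd274 (-0.26), and S100a8 against Il1rn (-0.43), Fth1 (-0.40) and Cd274 (-0.40). Retnlg was higher where S100a8 was higher (0.46). S100a8 and S100a9 are gate genes and made up at least 10% of the UMIs in 16 members, so other transcripts must be fewer there after thinning, and nothing is read from the negative values.

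**Figure D4:**
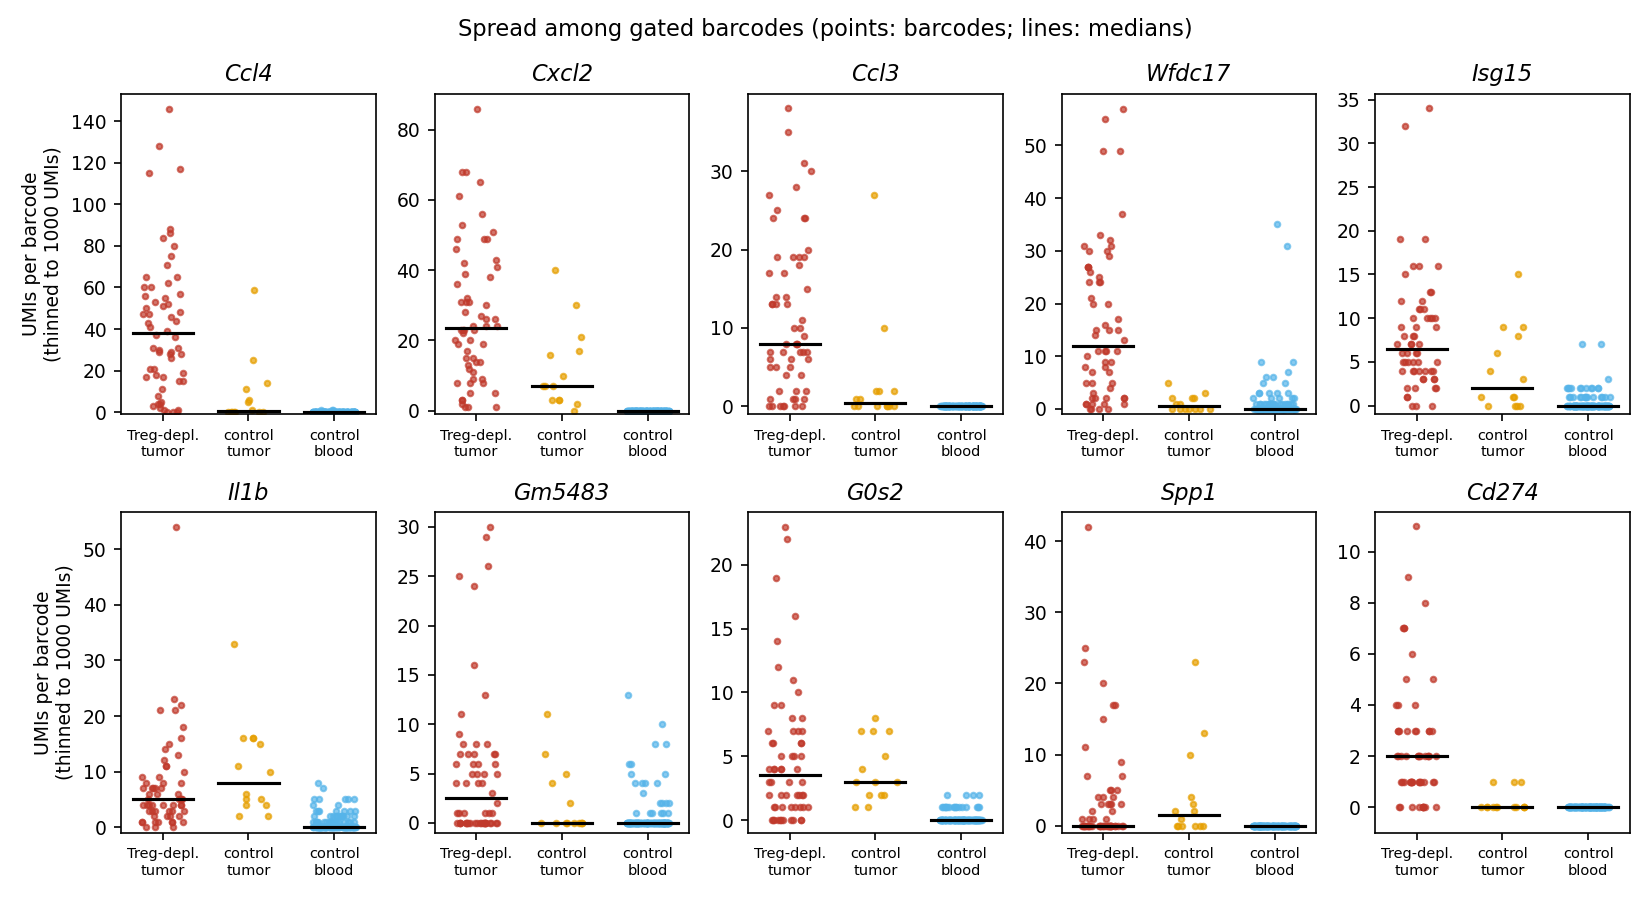
UMIs per barcode after thinning to 1000 for 10 genes in the neutrophil gate of the Treg-depleted tumor (60 barcodes), the control tumor (14) and control blood (138); points are barcodes and black lines medians. Ccl4 has a median of 38 in the Treg-depleted tumor and 0.5 in the control tumor, Cxcl2 23.5 and 7, and Wfdc17 12 and 0.5, with overlapping ranges.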

How the data were processed

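Single-cell RNA was measured in 3 libraries, 1 per group. Cell Ranger 1.2 and the mm10 build are named in the submitters' processing notes. Each deposited matrix lists UMI counts as whole numbers, over 27998 genes and all possible barcodes, so the barcodes were filtered here.

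With Python 3.11.15, numpy 2.4.6, scipy 1.17.1, pandas 2.3.3, scikit-learn 1.9.0 and matplotlib 3.10.9, counts were summed over the barcodes of a set and divided by their total UMIs. A gene was compared with at least 20 UMIs on either side (or expected in the members, against the other barcodes), and called at 2-fold. Ratios against 0 used 3 UMIs. Doublets were scored against simulated ones over 30 neighbours, at 0.8% per 1000 barcodes, and marked but not removed. Interval and call code was tested on simulated data.

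The members and lists (30 lists, 422 of 429 genes found) were chosen with earlier results of these data known. Genes were named from those lists, from the 12 highest and 12 lowest ratios per comparison (at least 100 CPM and 30 UMIs on the higher side, gate genes left out), the 20 highest levels and the 12 most variable genes.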

Additional observations from a re-analysis of the deposited data

How the results depend on the processing

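No paired analysis was possible because each group is 1 library, and no replicate could be left out. Shares passing the gate in the Treg-depleted tumor, control tumor and control blood were 0.987%, 0.117% and 1.51% at 1500 UMIs or more, 1.79%, 0.782% and 15.3% at 500 UMIs and 200 genes, and 0.338%, 0.0450% and 1.44% with no MHC class II UMI allowed; allowing 1 Csf1r UMI gave 2.97% in blood. The Treg-depleted tumor stayed above the control tumor in each of these. Over the other barcodes, with 20 UMIs on either side, 316 genes were higher and 2148 lower. With no MHC class II UMI allowed, 15 members were left, and these counts became 112 and 729 at the same 20-UMI minimum. They became 208 and 3283 under median-of-ratios scaling, 1420 lower with free RNA subtracted and 554 lower under the depth filter. Over blood, 418 were higher and 957 lower: 128 and 443 with no MHC class II UMI, 1723 lower at 500 UMIs, 1559 lower at 10 UMIs on either side, 440 lower under the depth filter, 394 lower against blood barcodes with 10% S100 UMIs, and 221 lower against the 59. Median-of-ratios scaling moved the median log2 ratio of all genes to 0.02 over the other barcodes (0.70 before) and to -1.33 over blood (-1.04 before). Among genes that differed at least 2-fold beyond counting error, those whose log2 ratio changed sign were granule genes over blood: with at most 5 granule UMIs in blood, Camp 0.23, Ltf 2.65 and Ngp 1.54, and Ngp 0.087 against the 59. Smaller ratios changed sign as well, such as Cxcr2 over blood (-1.66 to 0.60), and so did the median of all genes, over blood (-1.33 to 0.78) and over the other barcodes (-0.69 to 2.66). Over all alternatives the log2 ratio over blood ran from 9.42 to 11.91 for Ccl4, 5.94 to 9.70 for Cd274 and 4.04 to 5.45 for Isg15. Camp, Ltf and Ngp were the genes by which the granule-poor blood barcodes were chosen, so the shift of their ratios follows from that choice. Camp was at 0 UMIs in the members, so its 0.23 comes from the 3-UMI floor and is not a higher level. Ltf had only 4 UMIs in the members. The causes of the other shifts were not tested. The 14 control tumor barcodes limit that comparison to counting intervals.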
